A study of Mus musculus with 6 samples.

Results

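The 10 genes described here are interferon-linked members of the PARP and TRIM families: the antiviral PARPs Parp9, Parp10, Parp12 and Parp14, the Parp9 partner Dtx3l, and the TRIM genes Trim12c, Trim21, Trim25, Trim30a and Trim34a. They were taken by gene symbol. The arrays held 18193 genes with at least 1 probe set of their own, and 9 of the 10 members were among them (all but Parp10), a probe set being several short probes that read the same transcript. The cells were cultured mouse embryonic fibroblasts (MEFs, from connective tissue) that had been immortalized, and their RNA was read on 6 Affymetrix arrays. All 6 cultures lacked PCAF (PCAF-/-, gene Kat2b), a histone acetyltransferase related to GCN5 (gene Kat2a). Per the labels, 3 arrays were of PCAF-/-;GCN5+/- and 3 of PCAF-/-;GCN5-/- cells. The design describes a conditional GCN5 allele and retroviruses carrying either Cre recombinase, which deletes that allele, or no insert; no array label names its virus, so GCN5-/- was read as Cre and GCN5+/- as vector. All cultures went through selection in puromycin (2.5 ug/ml), and the virus and the genotype changed together. Each group held 2 RNAs of line A, named A1 and A2, and 1 RNA of line B, which was immortalized separately. Only 2 lines therefore stand behind each value, and p-values rest partly on spread that may be technical. Arrays with the same replicate name were set side by side as pairs; that A1 belongs with A1 is not given by the labels beyond the shared line.

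PARPs are enzymes that move ADP-ribose from NAD+ onto proteins, and the interferon-linked members are best known for restraining viruses and shaping interferon signals rather than for DNA repair. Most TRIM proteins are E3 ubiquitin ligases with a RING domain, and several of them act in innate immunity as sensors, effectors or brakes. Interferon bound to its receptor activates transcription factors, STAT2 and IRF9 among them, that bind the interferon-stimulated response element (ISRE) in the promoters of its target genes. Fibroblasts respond to interferon in this way and can make type I interferon themselves.

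Of the 10 genes, 7 had a promoter in the RefSeq table of build GRCm38.p6 (Dtx3l, Parp12, Trim12c, Trim21, Trim25, Trim30a and Trim34a), with 8 windows because Trim30a has 2 start sites. Each window holds 250 bases before the start and 50 from the start on. The ISRE core searched was GAAANNGAAA on either strand (TTTCNNTTTC on the other), and overlapping matches were allowed. It was found in 5 of the 8 windows, those of Trim12c, Trim21, Trim30a (both starts) and Trim34a, against 3.44% of all 32851 windows in the table. These are the members on chromosome 7, and the promoters of 4 of them are shown because they carry the match, 5′ to 3′ in the direction of the gene with the matched bases in capitals.

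Trim21, chr7:102565433-102565732, minus strand: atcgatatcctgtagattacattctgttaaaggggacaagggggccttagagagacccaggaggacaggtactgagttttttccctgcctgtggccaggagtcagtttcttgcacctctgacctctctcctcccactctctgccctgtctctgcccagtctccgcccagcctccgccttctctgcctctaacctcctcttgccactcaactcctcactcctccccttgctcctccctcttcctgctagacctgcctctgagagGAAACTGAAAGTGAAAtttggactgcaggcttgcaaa
Trim34a, chr7:104244207-104244506, plus strand: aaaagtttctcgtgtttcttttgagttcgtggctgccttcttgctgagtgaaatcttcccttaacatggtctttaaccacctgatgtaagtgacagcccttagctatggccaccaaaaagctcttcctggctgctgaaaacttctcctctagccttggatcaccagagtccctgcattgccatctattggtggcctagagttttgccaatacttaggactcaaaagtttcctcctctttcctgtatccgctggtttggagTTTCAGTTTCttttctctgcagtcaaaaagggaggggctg
Trim12c, chr7:104353300-104353599, minus strand: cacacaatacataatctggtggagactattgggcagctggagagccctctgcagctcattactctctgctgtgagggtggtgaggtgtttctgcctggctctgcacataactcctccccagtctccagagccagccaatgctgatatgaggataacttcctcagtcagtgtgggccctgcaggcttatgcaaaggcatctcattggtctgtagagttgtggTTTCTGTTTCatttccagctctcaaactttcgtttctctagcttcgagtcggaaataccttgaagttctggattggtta
Trim30a, chr7:104465144-104465443, minus strand: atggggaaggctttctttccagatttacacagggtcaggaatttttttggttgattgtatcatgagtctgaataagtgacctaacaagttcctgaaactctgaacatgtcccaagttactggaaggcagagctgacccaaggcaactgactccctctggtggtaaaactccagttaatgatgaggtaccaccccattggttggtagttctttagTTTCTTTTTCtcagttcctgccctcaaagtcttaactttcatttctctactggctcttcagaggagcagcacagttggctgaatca

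In Trim21 the 2 matches overlapped and began 13 and 19 bases after the first transcribed base. In Trim34a the match lay on the opposite strand, beginning 10 bases after it. In Trim12c and in the Trim30a start shown, the match was also on the opposite strand and began at -29 and -36, counted from the first transcribed base as 0. The windows of Dtx3l, Parp12 and Trim25 held no such letters. The second interferon motif searched, TTCNNNGAA (the GAS element, its own reverse complement), was in 0 of the 8 windows and in 8.30% of all windows. A match describes letters and was not tested for binding.

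All values below are log2 signals as deposited, on which a difference of 1 is a 2-fold change, changes are GCN5-/- minus GCN5+/-, and the 3 arrays of a group are given in the order A1, A2, B. Median log2 signals of the 6 arrays lay between 7.40 and 7.45. The Kat2a probe set 1422972_s_at read 9.31, 10.07 and 11.51 in GCN5+/- arrays and 7.97, 7.85 and 7.75 in GCN5-/- arrays. It fell by 2.44 ± 0.37 (SE) on the log2 scale and 1422971_at by 0.75 ± 0.13 (limma adjusted p = 0.00864 and 0.0157), while 1426783_at, the brightest Kat2a probe set, was at 0.18 ± 0.16 (limma adjusted p = 0.575), with pairs at 0.56, 0.38 and -0.41 and a called rise of 0.47 ± 0.09 within line A (limma adjusted p = 0.0232); where each lies relative to the deleted part is not analysed here. The 3 Kat2b probe sets lay below the level filter described below and differed by 0.19, -0.00 and 0.09. Fibroblast markers were bright on every array (13 measured, mean signal 12.54 to 12.88 per array, Col1a2 and Vim at the top), apart from Thy1, which was at 6.19, 6.05 and 9.54 in GCN5+/- arrays and at 6.21, 6.02 and 8.60 in GCN5-/- arrays. Pdgfra was at 12.78, 13.01 and 10.84 in GCN5+/- and at 12.04, 12.51 and 10.52 in GCN5-/- arrays, so these markers differed between the lines in opposite directions. Of these 13, 6 were called lower in GCN5-/- arrays. Of 14 leukocyte markers measured, 8 passed the level filter and 1 was called, Cd53 (0.85 ± 0.09). Ptprc, the pan-leukocyte marker, was at 4.61 and 4.67 in the 2 groups, near the floor of the arrays. It was the dimmest of the list. The brightest were Cd53, Cd14 and Csf1r, with mean signals over the 6 arrays of 9.69, 9.34 and 9.18. The mean signal of the leukocyte markers was 7.00 to 7.04 in GCN5+/- and 7.07 to 7.25 in GCN5-/- arrays, and its part in the results was not tested. Endothelial and epithelial markers had 0 called of 1 and of 4 tested (limma adjusted p under 0.05). In bulk RNA, more cells with a transcript and more transcript per cell cannot be told apart.

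Every member gene that could be read alone was higher in GCN5-/- than in GCN5+/- arrays. The 10 genes had 21 probe sets, of which 17 carried 1 symbol and stood for 9 genes; 15 of the 17, with all 9 genes, passed the filter on mean signal (6.80, the 40th percentile), and all 15 were called higher (limma, adjusted p under 0.05) and 0 lower. Of these, 4 had a GCN5+/- mean under that filter and passed it only through the GCN5-/- arrays (both Trim12c probe sets, 1424857_a_at of Trim34a and 1451860_a_at of Trim30a), so nothing is read from their calls; the other 11 had GCN5+/- means above it, and 11 were called. Over all probe sets tested 4.20% were called higher and 4.31% lower, and 13 of the 15, against 0.755% of all, were called and at least 2-fold higher. These 13 include the 4 that passed the filter only through the GCN5-/- arrays, so that share is not read as a result. At the brightest probe set of each gene, the rise ran from 2.15-fold for Trim25 to 6.47-fold for Parp14, and the median log2 change was 2.13 over the 9 genes and -0.01 over all probe sets tested. For Trim12c and Trim34a the probe set that entered this median was among those 4. The genes were listed with results of these arrays in view, so the shared direction is not independent evidence of it. The calls depended on how the line entered the model, here as a covariate. With line as a random block, 6 of the 15 were called (both Dtx3l probe sets, Parp9, Parp12, Parp14 and Trim34a). With no line term, 2 were called (Parp9 and 1439825_at of Dtx3l).

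Parp14, a large macrodomain PARP that attaches single ADP-ribose units, was, with Trim30a, at the top of the order of changes at the brightest probe sets. Their changes were 0.02 apart against a combined SE of 0.31, and Trim30a was ahead with the mean of each gene's probe sets (3.00 against 1.60) and without either line B array (3.23 against 2.68). For Parp14 (1451564_at) the GCN5+/- arrays read 7.96, 8.03 and 7.11, and the GCN5-/- arrays 10.50, 10.85 and 9.83. The lowest GCN5-/- array was above the highest GCN5+/- array, and line B was the lowest array of each group. Group means were 7.70 ± 0.51 (SD, n = 3) and 10.39 ± 0.52, and the change was 2.69 ± 0.11 (SE; limma adjusted p = 3.59e-05). A dimmer Parp14 probe set, 1432548_at, lay below the level filter and differed by 0.51 ± 0.10, and the mean of both probe sets rose by 1.60.

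Parp9 and Dtx3l work as a pair, Dtx3l being an E3 ubiquitin ligase and Parp9 its PARP partner, and in the RefSeq gene table they are next to each other on chromosome 16 with Parp14 beside Dtx3l. Parp9 (1416897_at) read 9.59, 9.77 and 9.23 in GCN5+/- arrays, and 11.68, 11.88 and 11.12 in GCN5-/- arrays. Its groups did not overlap, and the pairs differed by 2.09, 2.11 and 1.89, a fitted change of 2.03 ± 0.10 (SE; limma adjusted p = 5.74e-05). Dtx3l at 1435208_at read 8.94, 9.24 and 8.22, and then 11.01, 11.20 and 10.60 in GCN5-/- arrays. Its groups were also separate, and the change was 2.13 ± 0.13 (limma adjusted p = 0.000115). The second Dtx3l probe set, 1439825_at, rose by 1.68 ± 0.10 (limma adjusted p = 9.91e-05). Changes of Parp9 and Dtx3l at their brightest probe sets were 0.10 apart, less than the combined SE of 0.16.

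Parp12, a zinc-finger PARP linked to RNA and to restraint of viral translation, had the smallest change of the PARP group. Its signal at 1426774_at was 10.24, 10.41 and 9.51 in GCN5+/- arrays, and 11.83, 11.93 and 11.16 in GCN5-/- arrays. No GCN5-/- array fell among the GCN5+/- arrays, and the 3 pairs were close to one another (1.60, 1.51 and 1.65). The fitted change was 1.59 ± 0.09 (SE; limma adjusted p = 7.62e-05). Parp12 lay 0.44 below Parp9 in the order of changes, against a combined SE of 0.13, the widest gap between neighbours in that order; such gaps were not tested.

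Parp10 attaches single ADP-ribose units, and its only probe set, 1452178_at, is annotated to Parp10 and to its neighbour Plec, so no value is assigned to Parp10. That shared probe set read 9.04, 9.34 and 9.04 in GCN5+/- arrays and 10.90, 11.13 and 10.35 in GCN5-/- arrays, with no overlap and a change of 1.65 ± 0.14 (SE; limma adjusted p = 0.00066).

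**Figure D1:**
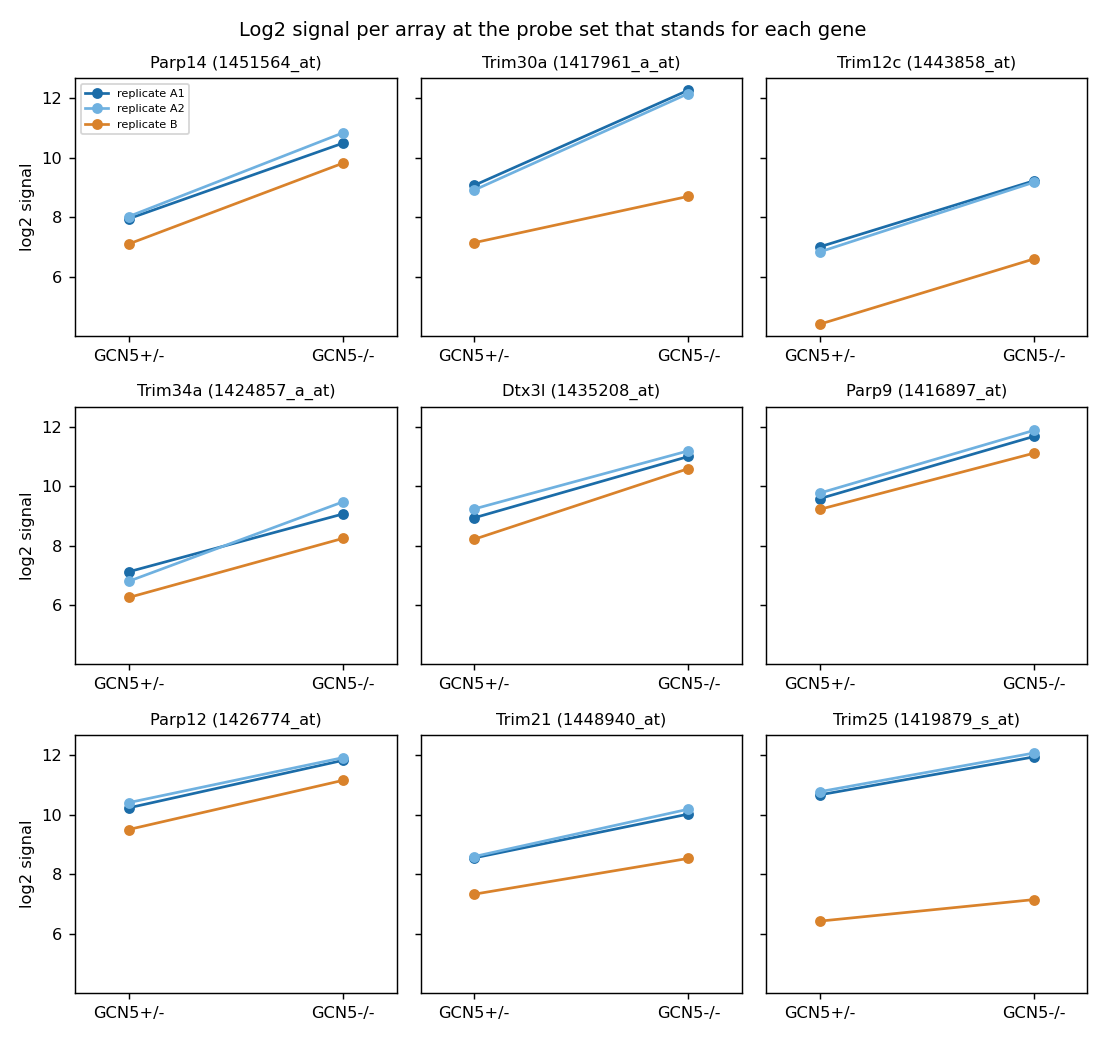
Log2 signal (y axis) in GCN5+/- and GCN5-/- arrays (x axis) at the probe set that stands for each of the 9 genes, in order of change; each line joins the 2 arrays of 1 replicate. All lines rise, and the line B array (orange) is the lowest of its group in each panel, by the widest margin for Trim25.

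Trim30a, known as a restraint on NF-kB signalling, had the largest change of all member probe sets. At 1451860_a_at it read 7.72, 7.72 and 4.78 in GCN5+/- arrays, and 11.25, 11.51 and 7.44 in GCN5-/- arrays. Line B with GCN5 lost lay below line A with GCN5, so the groups overlapped, although the pairs differed by 3.53, 3.79 and 2.65; the line B value of 4.78 was not shown to be above background, which leaves the size of the last difference uncertain. The change was 3.33 ± 0.20 (SE; limma adjusted p = 0.000115). That probe set passed the level filter only through the GCN5-/- arrays, so nothing is read from its adjusted p-value or its rank. The brighter probe set, 1417961_a_at, read 9.08, 8.92 and 7.15 in GCN5+/- arrays and 12.28, 12.17 and 8.71 in GCN5-/- arrays. It rose by 2.67 ± 0.29 (limma adjusted p = 0.00194), with 3.20 and 3.25 in the line A pairs and 1.56 in pair B. A probe set annotated to both Trim30d and Trim30a, 1456494_a_at, rose by 2.47 ± 0.23 (limma adjusted p = 0.00102).

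Trim12c, a relative of Trim5 in the same chromosome 7 cluster, read 7.01, 6.84 and 4.41 in GCN5+/- arrays at 1443858_at, and 9.23, 9.18 and 6.60 in GCN5-/- arrays. The line B array with GCN5 lost was below both line A arrays that kept it, and the pairs differed by 2.22, 2.34 and 2.20. The value of 4.41 was not shown to be above background, so the difference of pair B is not an exact size. The change was 2.25 ± 0.09 (SE; limma adjusted p = 3.59e-05). The second probe set, 1445271_at, rose by 1.68 ± 0.22 (limma adjusted p = 0.00469), with pairs at 2.23, 1.66 and 1.15. Both probe sets passed the level filter only through the GCN5-/- arrays, so nothing is read from these adjusted p-values.

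Trim34a, an interferon-responsive member of that cluster, read 7.13, 6.81 and 6.26 in GCN5+/- arrays at 1424857_a_at, and 9.07, 9.48 and 8.25 in GCN5-/- arrays. Its groups did not overlap, and the change was 2.20 ± 0.15 (SE; limma adjusted p = 0.000212). That probe set passed the level filter only through the GCN5-/- arrays, so nothing is read from its adjusted p-value. The dim Trim34a probe set 1426093_at, below the filter, differed by 0.75 ± 0.11. Another pair of probe sets is annotated to both Trim34b and Trim34a: 1421550_a_at rose by 1.50 ± 0.14 (limma adjusted p = 0.00101), and 1426092_a_at, below the filter, differed by 1.43 ± 0.15. Trim30a with Trim30d, Trim12c with Trim12a, and Trim34a with Trim34b are close copies, so signal may be shared between them, and how much was not tested.

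Trim21 (also Ro52), an E3 ligase that binds the constant part of antibodies inside the cell, read 8.55, 8.60 and 7.33 in GCN5+/- arrays at 1448940_at, and 10.03, 10.19 and 8.54 in GCN5-/- arrays. The line B array with GCN5 lost matched the line A arrays that kept it, and each pair rose. The change was 1.42 ± 0.11 (SE; limma adjusted p = 0.000421). At its second probe set, 1418077_at, Trim21 rose by 0.93 ± 0.15 (limma adjusted p = 0.00963), with line A pairs at 1.20 and 1.11 and pair B at 0.48. That call was lost with averaged line A duplicates (adjusted p = 0.0653), without GCN5+/- A1 (adjusted p = 0.0528) and without GCN5-/- A2 (adjusted p = 0.0526).

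Trim25, an E3 ligase known for its work with the RNA sensor RIG-I and for attaching Isg15, had the smallest change of the 9 genes and the largest difference between lines. At 1419879_s_at it read 10.67, 10.78 and 6.43 in GCN5+/- arrays, and 11.95, 12.08 and 7.15 in GCN5-/- arrays. Line B was far below line A in each group, so the groups overlapped. The pairs rose by 1.28, 1.30 and 0.73, a change of 1.10 ± 0.13 (SE; limma adjusted p = 0.00298). A second probe set, 1425974_a_at, gave 1.04 ± 0.15 (limma adjusted p = 0.00687; 0.0509 with averaged line A duplicates). The third, 1426415_a_at, rose by 1.31 and 1.13 in the line A pairs and 0.13 in pair B; its change of 0.86 ± 0.21 was the smallest of the tested member probe sets (limma adjusted p = 0.0411), and it was not called with the replicate block (adjusted p = 0.0532), with averaged duplicates (adjusted p = 0.192), without the variance trend (adjusted p = 0.0626) or without any 1 of the 4 line A arrays (adjusted p = 0.113 to 0.162).

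**Figure D2:**
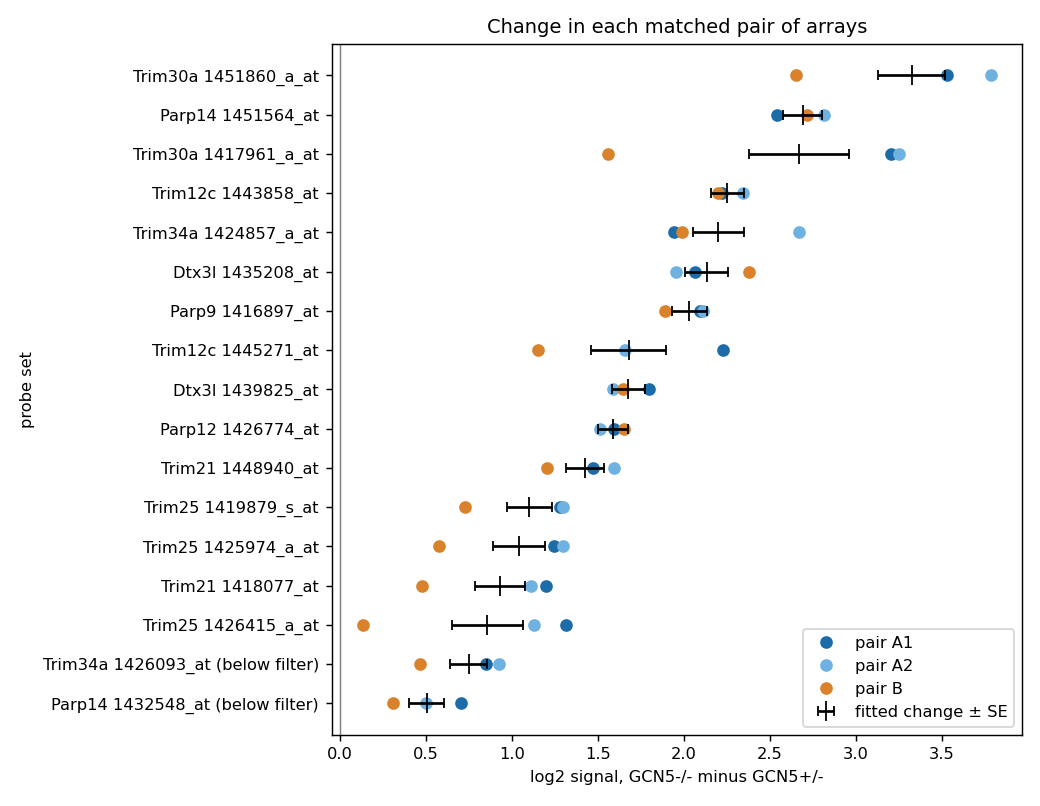
Change in log2 signal (x axis, GCN5-/- minus GCN5+/-) in each matched pair for the 17 member probe sets with 1 symbol (y axis), with the fitted change and its SE in black. All points lie above 0, and pair B (orange) is the lowest of the 3 at each Trim30a, Trim25, Trim21 and Trim12c probe set.

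Whether the groups were separate was counted in each family, and the difference between the counts was not tested. All 5 tested probe sets of Parp9, Parp12, Parp14 and Dtx3l had every GCN5-/- array above every GCN5+/- array, and 2 of the 10 tested TRIM probe sets did, 1424857_a_at of Trim34a and 1418077_at of Trim21; over all tested probe sets 8.20% were separated in this direction. The other 8 TRIM probe sets overlapped because of line B. Within line A alone, all 15 tested member probe sets were called higher (limma, with 4.20% of all probe sets called higher there). These 15 include the 4 that passed the filter only through the GCN5-/- arrays, 1424857_a_at of Trim34a among them. Nothing is read from the calls of those 4.

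Line B started lower at the tested member probe sets. In GCN5+/- cells all 15 of them were lower in line B than in line A. Of these, 11 were called lower and 0 higher (limma, adjusted p under 0.05), against 8.32% and 7.46% of all probe sets. The median over the 9 genes was -0.89 against 0.02 over all probe sets tested. The 15 include the 4 that passed the filter only through the GCN5-/- arrays, and nothing is read from the calls of those 4. Both Trim12c probe sets and 1451860_a_at of Trim30a, which belong to those 4, are among the 11 called. Line B minus line A was -4.30 ± 0.14 (SE) for Trim25 at 1419879_s_at and -4.42 ± 0.15 at 1425974_a_at, but -1.27 ± 0.17 at 1426415_a_at (limma adjusted p = 4.43e-06, 5.19e-06 and 0.00211). It was -2.52 ± 0.16 for Trim12c (1443858_at, limma adjusted p = 6.4e-05), and -1.85 ± 0.15 and -2.94 ± 0.17 for Trim30a at 1417961_a_at and 1451860_a_at (limma adjusted p = 0.000204 and 4.32e-05). The line B signals of 4.41 and 4.78 behind the values of -2.52 and -2.94 were not shown to be above background, so those are not exact sizes. In the PARP group the values were nearer to 0 than those of Trim25, Trim12c and Trim30a, with Parp14 at -0.89 ± 0.18, Dtx3l at -0.87 ± 0.17 and Parp12 at -0.82 ± 0.13 (limma adjusted p = 0.0161, 0.0135 and 0.0046), and Parp9 at -0.45 ± 0.15 (limma adjusted p = 0.0778). The second Dtx3l probe set was at -0.45 ± 0.16 (limma adjusted p = 0.1). Trim21 was at -1.24 ± 0.16 at 1448940_at but at -0.37 ± 0.16 at 1418077_at (limma adjusted p = 0.00172 and 0.166). The latter was nearer to 0 than the values given above for the PARP group. Other probe sets of that group were nearer still. Parp14 1432548_at, below the filter, was higher in line B (0.21 ± 0.15), and the probe set shared by Parp10 and Plec was at -0.15 ± 0.18. Line B is 1 array a group here, and the spread is that of the line A duplicates. The lines also differed in fibroblast markers: of 13 tested in GCN5+/- cells, 6 were called lower and 2 higher in line B, with Pdgfra at -2.06 ± 0.18, Pdgfrb at -1.11 ± 0.12 and Thy1 at 3.42 ± 0.17 (limma adjusted p = 0.000327, 0.00094 and 2e-05). Of 8 leukocyte markers tested there, 2 were called lower in line B, Cd53 (-1.24 ± 0.14) and Csf1r (-1.17 ± 0.17), and 1 higher, Cd68 (0.88 ± 0.17). The part of the fibroblast and leukocyte markers in the members' differences was not tested.

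Of the other TRIM genes of the chromosome 7 cluster with a probe set of their own, Trim12a and Trim30d passed the filter and were lower in line B. In GCN5+/- cells, line B minus line A was -1.91 ± 0.16 for Trim12a (SE; limma adjusted p = 0.000227) and -3.16 ± 0.17 for Trim30d (limma adjusted p = 3.21e-05). Trim12a passed the filter only through the GCN5-/- arrays, so nothing is read from its adjusted p-value. Trim34a, also in that cluster, was at -0.71 ± 0.22 and was not called (limma adjusted p = 0.0733). Trim5 and Trim6 of the cluster lay below the filter, at -0.02 ± 0.14 and 0.26 ± 0.18.

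No difference in the rise between the lines passed the test. The change in line B minus that in line A was below 0 at 10 of 10 tested TRIM probe sets and at 2 of 5 of the PARP group, with medians over genes of -0.33 and 0.07, and at 49.8% of all probe sets tested. None of the 15 was called for the genotype by line interaction (0 in limma). The lowest limma adjusted p was 0.0706, at Trim30a 1417961_a_at (-1.67 ± 0.21). An unadjusted limma p under 0.05 was found at 6 of the 15, against 7.66% of all probe sets. The 15 include the 4 that passed the filter only through the GCN5-/- arrays, and nothing is read from the p-values of those 4. Over all probe sets 0.0259% were called with a smaller and 0.0222% with a larger change in line B, 13 in all. The values nearest to 0 among the brightest probe sets were those of Parp14 (0.04 ± 0.26, SE), Trim12c (-0.09 ± 0.22) and Parp12 (0.10 ± 0.18), and these errors do not show equality. The second Trim12c probe set, 1445271_at, was at -0.79 ± 0.40. A difference in the interaction between the families was not tested.

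**Figure D3:**
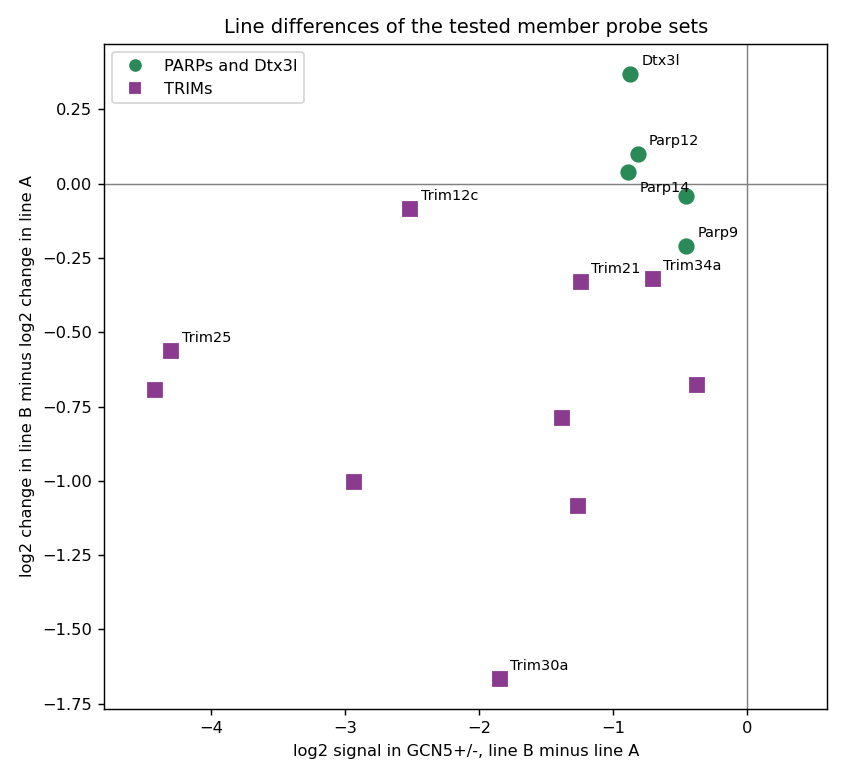
Log2 signal in GCN5+/- cells of line B minus line A (x axis) against the log2 change in line B minus that in line A (y axis) for the 15 tested member probe sets, labelled at the probe set that stands for each gene. Every point lies left of 0, with Trim25 near -4.3, and the TRIM points (squares) lie below 0; both axes use the same GCN5+/- arrays.

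The rest of each family served as the setting. Of 12 other PARP genes tested, 3 were called higher and 0 lower (2 and 0 after quantile normalization), with a median of 0.16: Zc3hav1, the antiviral zinc-finger protein also called PARP13, rose by 0.79 ± 0.07 (SE; limma adjusted p = 0.000528), Tiparp by 0.43 ± 0.08 and Parp3 by 0.31 ± 0.07 (limma adjusted p = 0.0188 and 0.0416). Parp1, the main DNA damage PARP, was at -0.04 ± 0.07 (limma adjusted p = 0.813). Of 9 deltex and ADP-ribose-removing genes tested, 0 were higher and 1 lower, Macrod2 (-0.42 ± 0.10; limma adjusted p = 0.041), and 2 were lower after quantile normalization. Of 53 other TRIM genes measured, 36 passed the filter, and 2 were called higher and 0 lower (2 and 1 after quantile normalization), with a median of -0.02. The 2 were Trim30d (1.99 ± 0.13; limma adjusted p = 0.000199) and Trim12a (1.37 ± 0.09; limma adjusted p = 0.000219), from the chromosome 7 cluster. The GCN5+/- mean of Trim12a was 6.35, under the filter, and it passed only through the GCN5-/- arrays, so nothing is read from its call. Trim14, below the filter and named here after its values were seen, differed by 1.03. Among other TRIM promoters, the ISRE core was in 5 of 61 windows, those of Trim2, Trim5, Trim12a, Trim26 and Trim30d.

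**Figure D4:**
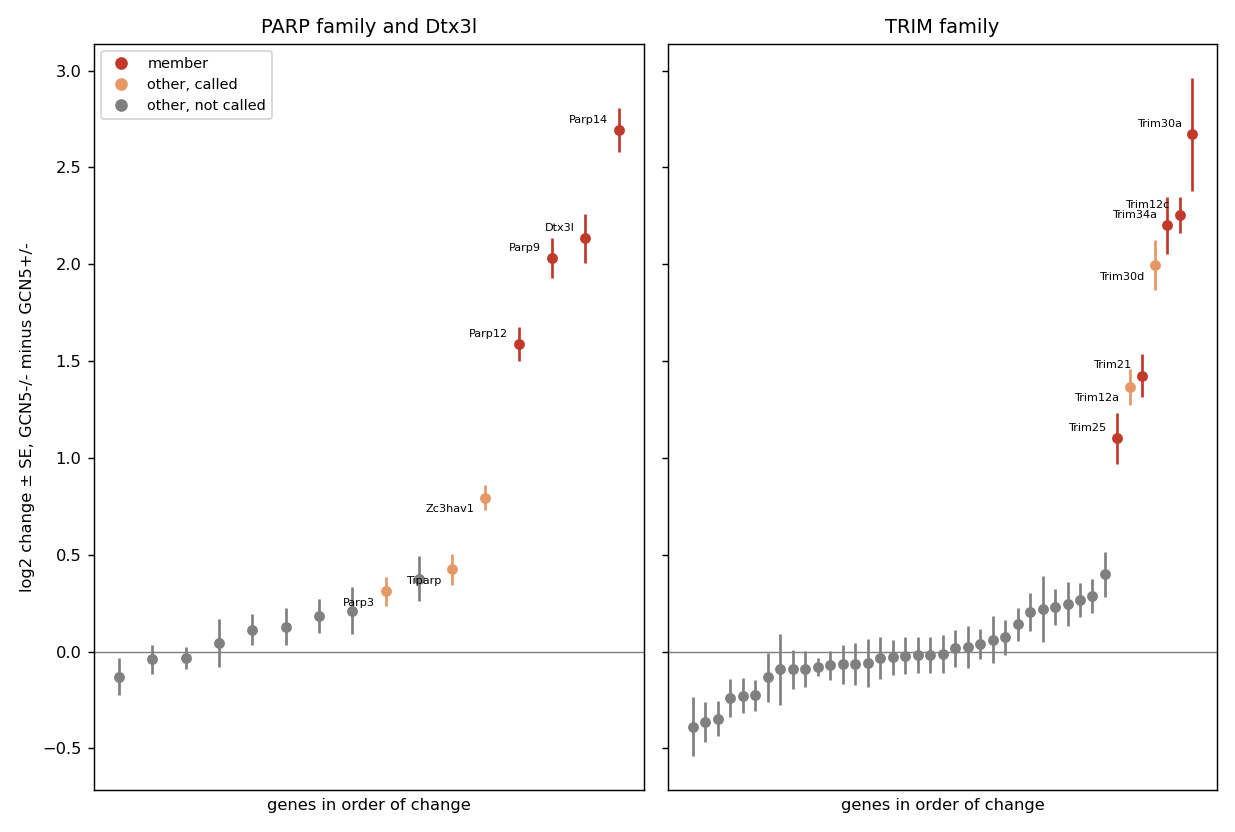
Log2 change with its SE (y axis) for every tested PARP gene with Dtx3l and every tested TRIM gene, in order of change (x axis, 1 point a gene); members are red and other called genes orange. The 9 members lie between 1.10 and 2.69, and the other TRIM genes apart from Trim12a and Trim30d lie around 0.

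Genes of the interferon signalling list, not all of which carry the signal forward, went with the members in part. Of 11 interferon signalling genes tested, 4 were called higher and 0 lower. These were Usp18 (4.55 ± 0.09, SE), Irf7 (2.52 ± 0.22), Irf9 (2.14 ± 0.11) and Stat2 (1.95 ± 0.14), with limma adjusted p-values up to 0.000734. Receptor and kinase genes were not called, with Ifnar1 at -0.37 ± 0.13, Ifnar2 at -0.19 ± 0.10, Jak1 at -0.03 ± 0.06 and Tyk2 at 0.01 ± 0.10. Ifnb1, which encodes interferon beta, lay below the filter and differed by 0.11 ± 0.10. The list median was 0.10. Of 8 RNA-sensing genes that work with or beside Trim25, 4 rose and 0 fell, with a median of 0.92: Dhx58 (2.42 ± 0.34), Ifih1 (2.19 ± 0.15), Ddx58, which encodes RIG-I (1.90 ± 0.10), and Tlr3 (1.63 ± 0.16), with limma adjusted p-values up to 0.00619. Dhx58 resembled Trim30a in rising by 3.25 and 2.89 in the line A pairs and by 1.12 in pair B. Rnf135, another E3 ligase for RIG-I, was at 0.21 ± 0.09 and Mavs at 0.07 ± 0.10, and neither was called (limma adjusted p = 0.203 and 0.732).

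The genes whose profile over the 6 arrays was most like the mean profile of the 9 members were Slfn2 (Pearson r = 0.998), Rassf6 (0.996), Ccdc115 (0.993), Wdr70 (0.992), Gsdme (0.992) and Rnf149 (0.991), of 12617 genes compared. These r values describe 6 arrays that share 2 lines and 2 genotypes, and 375 genes lay above 0.9. Slfn2, a schlafen gene, rose by 1.30 ± 0.10 (SE; limma adjusted p = 0.00045) and was lower in line B in each group, while Wdr70 was at 0.19 ± 0.08 and was not called (limma adjusted p = 0.187): likeness in shape says nothing of size.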

How the data were processed

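Expression was measured on 6 arrays. The authors deposited 1 log2 signal for each probe set and array; no source states the scale, which was inferred from the range of the values (3.13 to 15.2). Per the submitters' processing notes, MAS5 was used for 6 samples and Partek for 1; the background correction and the normalization were not given in the sources used here. Precision is limited by the number of arrays.

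Of 45101 probe sets, 64 controls were left out. The annotation gave 34945 probe sets 1 symbol, 932 several, and 9160 are unnamed here; symbols were updated by Entrez identifier through RefSeq (GRCm38.p6), and 34754 matched. The genotype effect was fitted in R 4.3.3 with limma 3.58.1 (lmFit, eBayes with trend) over all genes, with line as covariate, on the 27022 probe sets with a mean log2 signal of at least 6.80, and Benjamini-Hochberg adjusted (threshold 0.05). The product of genotype and line gave the interaction, the line A effect and the line difference (2 residual degrees of freedom). Values of probe sets below the filter came from a fit over all probe sets and were not called. The brightest probe set stood for a gene. The fit was tested on simulated data.

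Members and lists were chosen with earlier results of these data known. Named genes were all members, both targeted genes, up to 8 called genes of each list by smallest p, and the 6 genes most alike; others given are list members or are said to be named later. Replicate names pair the arrays by line: deviations from the group means correlated at 0.714, 0.727 and 0.846 in pairs A1, A2 and B. Alternatives were no line term, line as a random block, the replicate block, averaged duplicates, quantile normalization, other filters, no trend, and leaving out each array.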

Additional observations from a re-analysis of the deposited data

How the results depend on the processing

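All 9 genes kept a positive change in every alternative run, and 120 of the 132 gene values kept their side of the threshold; the other 12 lost their call, 8 with no line term and 4 with line as a random block. The line enters as follows: of the 15 tested member probe sets, 15 were called higher with line as covariate, 14 with the replicate block, 12 with averaged line A duplicates, 6 under a random line block and 2 without the line term. Leaving out 1 array gave 13 to 15. The 15 include the 4 that passed the filter only through the GCN5-/- arrays, and nothing is read from the calls of those 4. Quantile normalization gave 15, no trend 14, no filter on low signals 17 of 17, and the 60th percentile filter 12 of 12. Averaging a gene's probe sets moved Parp14 from 2.69 to 1.60; the mean of Trim34a fell below the filter and has no value. Counts over all probe sets moved more, from 2299 called to totals of 709 with averaged duplicates, 532 with the random block and 69 with no line term. Without 1 array the totals were 645 to 2309 (lowest without GCN5-/- A2). How many of the same probe sets these totals share was not counted. No member was called lower under these settings, and 0 were called for the interaction under 4 alternatives. All 34 line differences kept their call or stayed without one. The replicate block changed no other member call than that of Trim25 1426415_a_at. The interaction has 2 residual degrees of freedom, and line B has 1 array a group.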
